A study of Homo sapiens with 6 samples.

Results

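C/EBP family genes and SPI1, the gene of PU.1, were examined in Kasumi-1 cells incubated with the histone deacetylase inhibitor I3. The rows were taken by gene name, CEBPA, CEBPB, CEBPD, CEBPE, CEBPG, CEBPZ and SPI1, which are 7 of the 29810 genes in the deposited table. The members were chosen with earlier results of these data known, and the paper had already named CEBPβ as downregulated. Kasumi-1 is a human acute myeloid leukemia line with the t(8;21) translocation, which creates the RUNX1-RUNX1T1 fusion. Polyadenylated RNA was sequenced as 3 control libraries, from cells given the DMSO solvent, and 3 libraries from cells given 0.25 μM I3, all collected after 48 h according to the labels and the methods. The study's text names a longer incubation in 1 place, and the deposited table spells the compound differently. All libraries come from 1 cell line. The methods state that experiments were repeated, without saying whether the libraries of a group are such repeats, so the p-values measure the spread between these libraries, which may be technical.

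C/EBP proteins are transcription factors whose basic region binds DNA and whose leucine zipper (together bZIP) joins them into dimers with each other and with related proteins. C/EBPα commits myeloid progenitors to the granulocytic lineage, C/EBPε drives the late steps of granulocyte maturation, and C/EBPβ and C/EBPδ are tied to stress, cytokine signals and emergency or monocytic differentiation. C/EBPγ lacks the activating part and mainly acts as a dimer partner, whereas CEBPZ shares the name but encodes a CCAAT-binding protein without a bZIP domain. PU.1 is an ETS factor needed for monocytes, granulocytes and B cells, and it acts together with C/EBP proteins at many myeloid genes. The RUNX1-RUNX1T1 fusion is known to interfere with both C/EBPα and PU.1.

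Values are FPKM, which count fragments per length of a gene and per total of a library. Reads were rebuilt from FPKM and exon length, with a depth of 17500320 to 18193372 reads per library, and they show the counting depth behind a value. The myeloid label held in these data. All 8 markers listed for a t(8;21) myeloblast reached 0.5 FPKM, with a summed level of 8093 to 8931 FPKM in control and 8052 to 8633 FPKM in I3 libraries. Most of this sum was MPO, with 7789 to 8612 FPKM in control and 7740 to 8324 FPKM in I3 libraries. The 3 mature monocyte markers in the table summed to at most 0.0380 FPKM in any library, and each of the erythroid, megakaryocytic, lymphoid, mature granulocyte and stromal lists summed to at most 3.83 FPKM. A group mean of 0.5 FPKM was also reached by 1 erythroid, 1 megakaryocytic, 2 B lymphoid, 2 T lymphoid and 1 mature granulocyte marker. The measured levels also varied with GC content, in a direction that differed between libraries. The rank correlation of GC content with the deviation of a library was negative in control 1 (-0.313), I3 1 (-0.232) and I3 3 (-0.446) and positive in control 2 (0.446), control 3 (0.337) and I3 2 (0.262). Since CEBPA, CEBPB, CEBPD, CEBPE and SPI1 have a transcript GC content of 62.9% to 70.0%, values with this trend removed are given beside the results.

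To show how the starts of these genes differ, the 250 bases before the RefSeq start (GRCh38.p14) are printed for CEBPA and CEBPB, single-exon members whose levels were lowest in the library I3 3, and for CEBPE, whose level differed little between libraries. Capitals mark the TATA box letters TATAAA, the CCAAT box, and the core of PU.1 sites, which is GAGGAA. Each sequence reads toward the gene.
CEBPA, chr19:33302535-33302784, minus strand: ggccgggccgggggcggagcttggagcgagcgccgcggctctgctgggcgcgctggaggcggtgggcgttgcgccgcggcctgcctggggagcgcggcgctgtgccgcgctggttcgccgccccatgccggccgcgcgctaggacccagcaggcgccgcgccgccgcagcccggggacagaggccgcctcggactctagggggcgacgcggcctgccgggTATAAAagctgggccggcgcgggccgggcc
CEBPB, chr20:50190580-50190829, plus strand: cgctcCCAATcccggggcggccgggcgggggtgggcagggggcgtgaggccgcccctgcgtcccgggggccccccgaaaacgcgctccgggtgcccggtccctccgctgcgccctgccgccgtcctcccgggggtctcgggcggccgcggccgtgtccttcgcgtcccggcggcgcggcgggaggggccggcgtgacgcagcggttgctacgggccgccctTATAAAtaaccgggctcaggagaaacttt
CEBPE, chr14:23119256-23119505, minus strand: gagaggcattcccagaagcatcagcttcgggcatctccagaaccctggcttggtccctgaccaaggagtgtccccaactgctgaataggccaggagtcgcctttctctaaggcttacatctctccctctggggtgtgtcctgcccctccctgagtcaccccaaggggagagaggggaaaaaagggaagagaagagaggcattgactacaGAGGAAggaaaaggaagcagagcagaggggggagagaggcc

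The GC content was 81.2% in the CEBPA window and 77.6% in the CEBPB window, against a median of 58.0% over 35116 windows of the same length and 57.2% in CEBPE. The CEBPA and CEBPB windows each hold TATAAA, which begins 30 and 29 bases before the start and was searched on the printed strand only. TATAAA occurs in 6.8% of all windows. The CEBPE window has none, and holds GAGGAA 41 bases before the start, a motif found in 23.6% of all windows on either strand. The CEBPB window has 1 CCAAT (32.0% of all windows on either strand). Of the 7 genes 5 were matched to RefSeq windows, and neither the C/EBP site TTGCNNCAA (1.62% of all windows) nor the RUNX site TGTGGT (11.0%) was present in any of these 5. CEBPG and CEBPZ also lack TATAAA, with 2 reverse CCAAT in CEBPG and 1 GAGGAA in CEBPZ. Their windows had a GC content of 76% (CEBPG) and 62.8% (CEBPZ). The level of CEBPG differed little between libraries, like that of CEBPE. Any link between the GC content of a window and the level of its gene was not tested. All 5 windows overlap the gene as GENCODE annotates it, by its first 30 bases in CEBPA, 96 in CEBPB and 117 in CEBPZ. The CEBPE and CEBPG windows lie wholly inside the GENCODE gene. These matches describe letters, not bound sites.

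CEBPA, CEBPB and CEBPD are each encoded by a single exon, on chromosome 19 (33299934 to 33302564), chromosome 20 (50190734 to 50192689) and chromosome 8 (47736909 to 47739086) of GRCh38. CEBPE has 2 annotated exons on chromosome 14 (23117304 to 23119616). CEBPG lies close to CEBPA on chromosome 19 (33373330 to 33382686), CEBPZ lies on chromosome 2 (37201612 to 37231713) and SPI1 on chromosome 11 (47354860 to 47378576).

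In control cells PU.1 was by far the most abundant of these mRNAs per length. SPI1 had 91.5 ± 4.46 FPKM (SD, n = 3) and ranked 358 among 26609 genes above 0. It was followed by CEBPD with 35.0 ± 1.17 FPKM and CEBPE with 30.8 ± 2.14 FPKM, whose ranges did not overlap, and then by CEBPZ with 16.9 ± 0.802 FPKM and CEBPG with 15.7 ± 1.09 FPKM, whose ranges overlapped. CEBPB had 6.12 ± 0.494 FPKM. CEBPA, the granulocytic master regulator, was the lowest member with 4.15 ± 0.316 FPKM, 22.1 times below SPI1. Within the control group the highest library exceeded the lowest by 1.07-fold (CEBPD) to 1.17-fold (CEBPB).

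**Figure D1:**
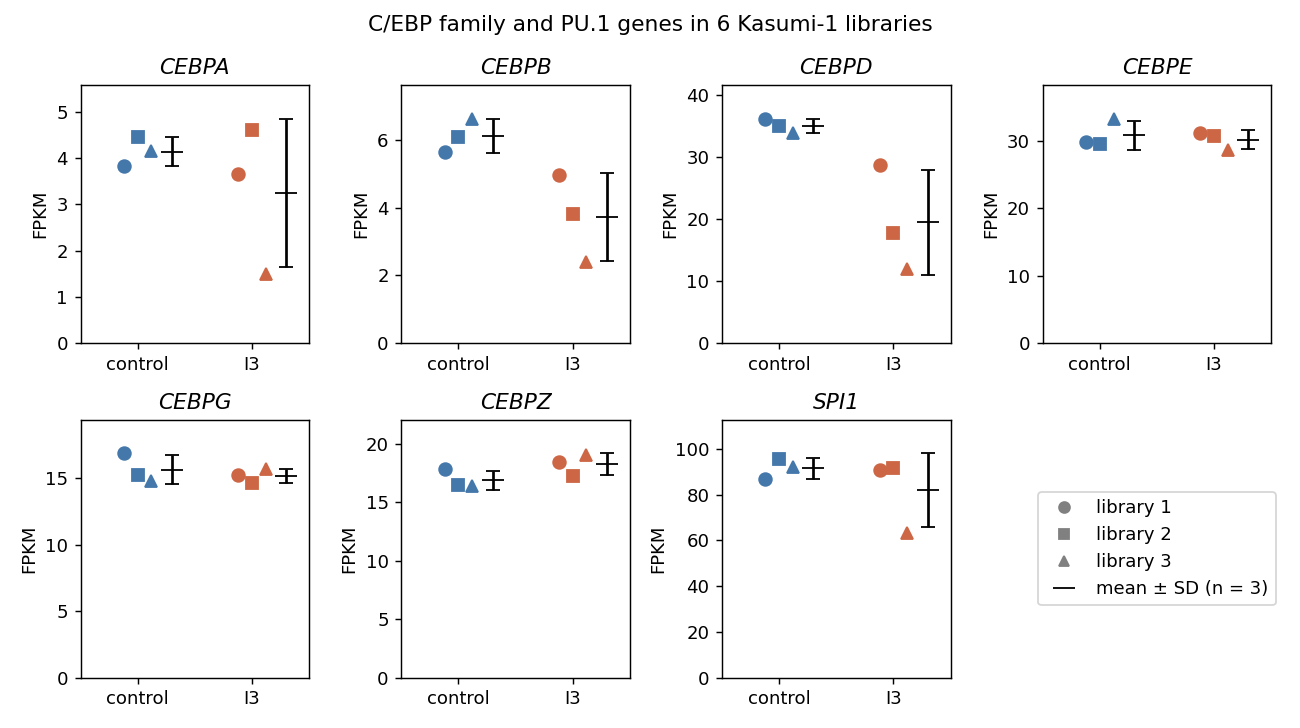
FPKM of each gene (y axis from 0) in the control and I3 libraries, with the symbol shape giving the library number and the mean ± SD (n = 3) beside the points. CEBPB and CEBPD lie below all controls in every I3 library, CEBPA and SPI1 are low in I3 3 alone, and CEBPE, CEBPG and CEBPZ overlap between the groups.

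I3 was compared with control by limma, using log2(FPKM + 0.5), for 12960 genes whose mean reached 0.5 FPKM, a minimum that all 7 genes passed. The thresholds followed the methods of the study, with a Benjamini-Hochberg adjusted p of 0.05 and a log2 difference of 0.58 or more, up or down. The test itself differs, since the study used DESeq, which was not repeated here. With DESeq the paper reports genes passing in both directions and describes CEBPβ as markedly downregulated. In limma on FPKM no member passed the thresholds, and neither did any other gene (0% of the genes tested). Before adjustment, CEBPB and CEBPD, 2 of 7 members, had a p under 0.05 together with that fold and were lower after I3, against 0.648% of all genes tested lower and 0.756% higher. No further member had an unadjusted p under 0.05 when the fold was ignored (4.93% of all genes tested). CEBPB and CEBPD were also the members with every I3 library below every control library, which held for 4.64% of all genes tested, while 0 of 7 members had every I3 library above every control library (5.06%). These unadjusted values are described and are not called as changes.

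CEBPD showed the largest difference of the family. It had 36.1, 34.9 and 33.8 FPKM in control 1, 2 and 3, and 28.6, 17.8 and 11.8 FPKM in I3 1, 2 and 3. The controls were close together, whereas the I3 libraries differed from each other by 2.42-fold and all lay below the controls. The log2 fold change was -0.92 (standard error 0.271, 95% interval -1.56 to -0.29, unadjusted p = 0.0107, adjusted p = 0.812 from limma). The two-sided exact permutation p was 0.1, the smallest that 3 against 3 libraries allow. The values rest on 4032 reads in control and 2268 reads after I3, a ratio of 0.554 with a 95% exact binomial interval of 0.526 to 0.583. Such intervals cover counting error only. CEBPD has the highest transcript GC content of the members (70.0%), and with the GC trend removed its log2 fold change was -0.79. I3 3 carried part of the size, and without it the value was -0.62 (unadjusted p = 0.0141), while without I3 1 it was -1.24 (unadjusted p = 0.000191, adjusted p = 0.165).

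CEBPB followed the same pattern at a lower level. Its values were 5.64, 6.09 and 6.63 FPKM in control 1, 2 and 3, and 4.96, 3.82 and 2.39 FPKM in I3 1, 2 and 3. I3 1 came close to the lowest control, and I3 3 was lowest, as for CEBPD. The log2 fold change was -0.69 (standard error 0.214, 95% interval -1.20 to -0.19, unadjusted p = 0.0134, adjusted p = 0.845 from limma), with an exact permutation p of 0.1. The 634 control reads and 391 reads after I3 gave a ratio of 0.607 (0.534 to 0.690). It was -0.60 with the GC trend removed and -0.44 without I3 3. CEBPB-AS1, which overlaps CEBPB on the opposite strand, had 9 reads in all control and 10 reads in all I3 libraries. The sources used here do not say whether reads were counted by strand.

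CEBPA was low in 1 library. It had 3.83, 4.46 and 4.15 FPKM in control 1, 2 and 3, and 3.67, 4.61 and 1.48 FPKM in I3 1, 2 and 3. I3 2 was above every control, I3 1 was just below them, and I3 3 held 71 reads against 172 to 216 reads in the other 5 libraries. On the log2 scale I3 3 was 1.23 below the control mean, and 0.640% of the tested genes were as low or lower in that library. The log2 fold change of -0.41 (standard error 0.318, 95% interval -1.16 to 0.33, adjusted p = 0.998 from limma) became -0.32 with the GC trend removed and -0.0071 without I3 3, and the exact permutation p was 0.5. CEBPA-DT, a noncoding gene that starts on the other strand beyond the CEBPA promoter, had 1.74 ± 0.208 FPKM (SD, n = 3) in control and 1.83 ± 0.273 FPKM after I3. Its level in I3 3 was 1.88 FPKM, within the range of the other libraries.

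SPI1 repeated this picture with a smaller size and many more reads. It had 86.7, 95.6 and 92.1 FPKM in control 1, 2 and 3, and 90.7, 91.7 and 63.2 FPKM in I3 1, 2 and 3. I3 1 and I3 2 lay within the control range and I3 3 below it. The log2 fold change was -0.18 (standard error 0.140, 95% interval -0.51 to 0.15, adjusted p = 0.998 from limma), and it became -0.093 with the GC trend removed and -0.0026 without I3 3. I3 3 had 2378 reads of SPI1 against 3170 to 3520 in the other libraries.

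The remaining members differed little between control and I3. CEBPE had 29.8, 29.5 and 33.3 FPKM in control 1, 2 and 3, and 31.2, 30.7 and 28.6 FPKM in I3 1, 2 and 3. Its groups overlapped, with a log2 fold change of -0.030 and a 95% interval of -0.19 to 0.13, and the sign turned to 0.030 with the GC trend removed. CEBPG had 16.9, 15.3 and 14.8 FPKM in control and 15.3, 14.7 and 15.7 FPKM after I3. Its log2 fold change was -0.040 (95% interval -0.20 to 0.12), -0.088 with the GC trend removed and 0.014 without control 1. CEBPZ had 17.8, 16.5 and 16.3 FPKM in control and 18.4, 17.2 and 19.1 FPKM after I3, a log2 fold change of 0.11 (95% interval -0.044 to 0.26) that became 0.045 with the GC trend removed. For these 3 genes the interval stayed inside the fold threshold of 0.58. CEBPZ overlaps CEBPZOS on the opposite strand, which had 2.91 ± 0.798 FPKM (SD, n = 3) in control and 3.11 ± 0.409 FPKM after I3.

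**Figure D2:**
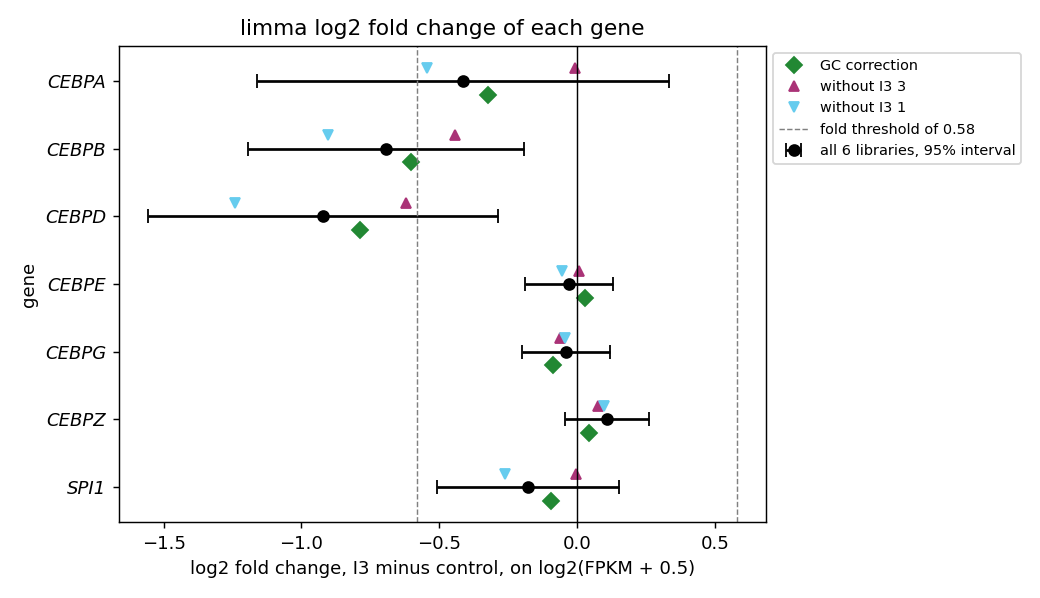
log2 fold change of each gene between I3 and control (x axis, on log2(FPKM + 0.5)) from limma, with the 95% interval over all 6 libraries and the value after 3 changes of the procedure. The intervals of CEBPB and CEBPD lie below 0, CEBPA and SPI1 move to about 0 without I3 3, and CEBPE, CEBPG and CEBPZ stay inside the dashed fold threshold of 0.58.

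The deviations of I3 3 were not shared by all GC-rich members. I3 3 was below the control mean by 1.52 for CEBPD, 1.23 for CEBPA, 1.19 for CEBPB and 0.53 for SPI1 on the log2 scale, and by 0.10 for CEBPE. The GC trend was fitted to deviations from the mean of all 6 libraries, so it is set beside deviations from that mean. In I3 3 such deviations were -1.06 for CEBPD, -1.02 for CEBPA, -0.85 for CEBPB, -0.44 for SPI1 and -0.088 for CEBPE. The GC trend of that library, taken from all tested genes at the GC content of each of these 5 genes, was between -0.17 and -0.095. In I3 2, CEBPD was 0.96 and CEBPB 0.61 below the control mean. From the mean of all 6 libraries they deviated by -0.50 and -0.27, where the GC trend was 0.043 and 0.048. I3 3 also held more low genes in general, with 4.13% of tested genes at least 0.5 below the control mean, against 2.44% in I3 1, 2.70% in I3 2 and 1.26% to 2.16% in the controls. The part that any such property of the library had in the values of CEBPA and SPI1 was not tested. Among the 167 tested protein-coding genes annotated with 1 exon, as CEBPA, CEBPB and CEBPD are, the median log2 fold change was -0.056, against 0.011 over all tested genes, and 5 genes (2.99%, against 0.648% of all genes tested) were lower at the unadjusted p with the fold, these including CEBPB and CEBPD, and 0 were higher. Every I3 library was below every control library for 26 of the 167 (15.6%), against 4.64% of all genes tested.

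**Figure D3:**
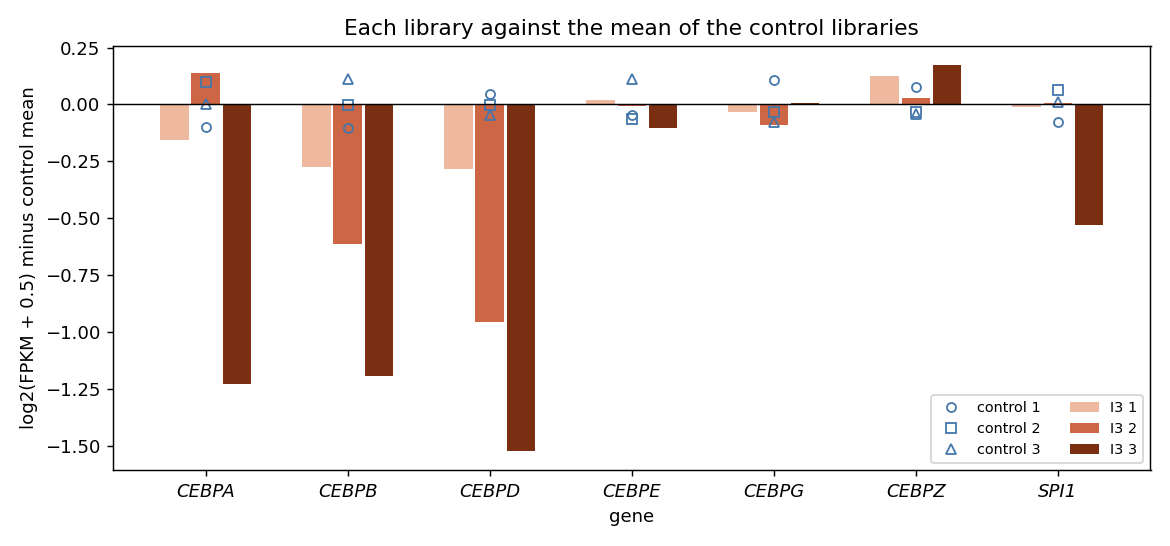
Difference of each library from the control mean on log2(FPKM + 0.5) (y axis) for each gene, with I3 libraries as bars and control libraries as open symbols. CEBPD and CEBPB are below 0 in all I3 libraries, and I3 3 is 1.52 below for CEBPD, 1.23 for CEBPA, 1.19 for CEBPB and 0.53 for SPI1.

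The bZIP C/EBP mRNAs are described next by their sum and shares, most without a test. The summed level of CEBPA, CEBPB, CEBPD, CEBPE and CEBPG was 92.3, 90.2 and 92.7 FPKM in control 1, 2 and 3, and 83.8, 71.5 and 60.1 FPKM in I3 1, 2 and 3. All I3 sums were below all control sums. CEBPD held 38.1 ± 1.45% (SD, n = 3) of the sum in control and 26.2 ± 7.34% after I3, and CEBPE held 33.6 ± 2.02% and 42.6 ± 5.21%. CEBPD was above CEBPE in every control library, by 1.01- to 1.21-fold, and below it in every I3 library, at 0.916, 0.579 and 0.413 times its level in I3 1, 2 and 3. The share of CEBPB was 6.67 ± 0.522% in control and 5.08 ± 1.00% after I3 (exact permutation p = 0.1, the smallest possible). CEBPA held 4.52 ± 0.400% and 4.43 ± 1.99%, and CEBPG 17.1 ± 1.17% and 21.6 ± 4.08%. A share rises where other members are lower, so the larger shares of CEBPE and CEBPG stand beside levels that differed little.

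**Figure D4:**
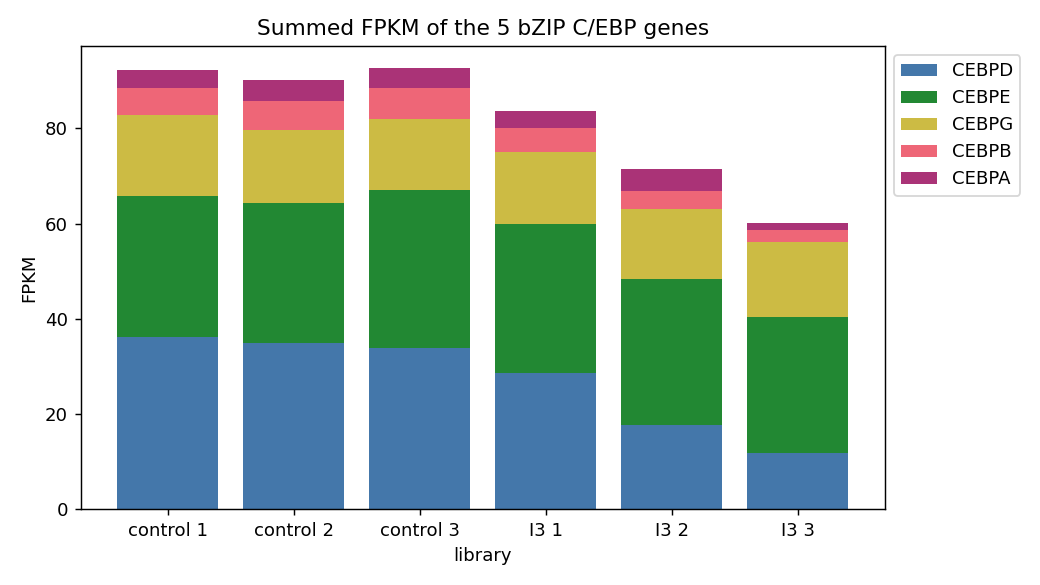
Stacked FPKM of the 5 bZIP C/EBP genes (y axis) in each library. The sum is 90.2 to 92.7 FPKM in controls and 60.1 to 83.8 FPKM after I3, and the CEBPD segment is smaller in every I3 library.

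The ratio of CEBPB to CEBPA, both single-exon genes of similar GC content (66.2% and 65.9%), did not differ beyond the spread. It was 1.47, 1.36 and 1.60 in control 1, 2 and 3, and 1.35, 0.828 and 1.61 in I3 1, 2 and 3. I3 2 alone stood below 1, and the exact permutation p was 0.5. I3 3, where both genes were lowest, kept the ratio of the controls.

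Genes whose levels over the 6 libraries were most like a member were sought among 10639 genes with a symbol and at least 1 FPKM, by Pearson's r of log2(FPKM + 0.5). They are a description over 6 libraries that share the GC trends above, with no test. CEBPA was most like SDHAF1 (r = 0.998), TMUB1 (r = 0.995) and ZFYVE19 (r = 0.993), and its r with SPI1 was 0.984. CEBPB was most like SLC25A42 (r = 0.994), EID2 (r = 0.994) and MSX1 (r = 0.993), and its r with CEBPD was 0.975. SPI1 was most like ANKRD54 (r = 0.998), BANF1P3 (r = 0.997) and MEA1 (r = 0.995). For CEBPD, which was added after its values had been seen, the genes were SLC25A33 (r = 0.995), PDCD2 (r = 0.994) and ANXA2 (r = 0.993). Each of these genes had its lowest value in I3 3, as CEBPA, CEBPB, CEBPD and SPI1 did, which the choice by r made likely beforehand. In I3 3, SLC25A42 had 2.47 FPKM against 2.57 to 2.67 FPKM in the other libraries, and BANF1P3 had a listed 0.

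Partners of C/EBP proteins were examined as a group, since the zipper pairs them with other bZIP proteins. Of 18 listed genes 16 were tested, none was called, and 12 were lower and 4 higher after I3, with a median log2 fold change of -0.095. Over all genes tested, 45.8% were lower and the median was 0.011. Every I3 library was below every control library for 3 of them and above for 1 (4.64% and 5.06% of all genes tested). DBP, a clock-controlled bZIP factor, had the smallest unadjusted p (0.0119), and its control libraries held 3.57, 4.40 and 3.75 FPKM. The I3 libraries, with 3.08, 3.09 and 2.39 FPKM, were all lower. Its log2 fold change of -0.40 (adjusted p = 0.816 from limma) was below the fold threshold. JUND, an AP-1 subunit, had 49.9 ± 4.14 FPKM (SD, n = 3) in control and 40.0 ± 8.01 FPKM after I3, and its log2 fold change of -0.33 became -0.20 with the GC trend removed and -0.16 without I3 3. ATF4, the factor of the integrated stress response, had 171.0 ± 6.72 FPKM and 158.8 ± 5.79 FPKM. DDIT3, which encodes the C/EBP homologous protein CHOP, had 4.76 ± 0.620 FPKM and 4.72 ± 0.907 FPKM, a log2 fold change of -0.019 (95% interval -0.35 to 0.31).

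Regulators of C/EBPα and partners of PU.1 held no call either. All 8 listed regulators were tested, 6 higher and 2 lower, with a median of 0.020. Those with the smallest unadjusted p were CELF1, an RNA-binding protein (15.8 ± 0.464 FPKM in control and 17.3 ± 0.365 FPKM after I3, SD, n = 3), TRIB3 (15.3 ± 1.42 and 13.5 ± 1.42 FPKM) and COP1, a ubiquitin ligase that degrades C/EBPα with Tribbles proteins (11.8 ± 0.513 and 10.8 ± 0.748 FPKM). Every I3 library was above every control library for 1 of the 8, CELF1, against 5.06% of all genes tested. Of 20 partners and antagonists of PU.1, 12 were tested, 4 higher and 8 lower, with a median of -0.036. The groups overlapped for each of these 12. RUNX1 had 32.4 ± 1.68 FPKM in control and 34.2 ± 1.01 FPKM after I3, and RUNX1T1, whose reads include the 3′ part of the fusion, had 15.1 ± 1.24 and 16.1 ± 1.11 FPKM. EGR1, a factor of monocytic differentiation, had 1.20 ± 0.350 and 0.932 ± 0.287 FPKM.

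Genes that C/EBP proteins and PU.1 are known to drive were compared in the same libraries. Of 22 granulocytic genes 9 were tested, 3 higher and 6 lower, with a median of -0.0073. The groups overlapped for all 9. Over all genes tested, every I3 library was below every control library for 4.64% and above for 5.06%, so few such genes would be looked for among 9. The primary granule genes stayed at very high levels. MPO had 8197 ± 412 FPKM (SD, n = 3) in control and 8015 ± 294 FPKM after I3, and ELANE 4556 ± 933 and 4600 ± 796 FPKM. The smallest unadjusted p in this list was that of LYZ, with 11.0, 7.07 and 9.46 FPKM in control and 11.4, 4.84 and 6.20 FPKM after I3, followed by S100A9 (3.47 ± 1.24 and 2.97 ± 1.64 FPKM) and AZU1 (706.8 ± 145 and 741.2 ± 79.0 FPKM). CSF3R, the G-CSF receptor, had 89.2 ± 12.7 and 88.5 ± 6.38 FPKM.

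Of 24 monocytic genes 17 were tested, SPI1 among them, with 6 higher, 11 lower and a median of -0.028. For 2 of them, against 4.64% of all genes tested, every I3 library was below every control library. They were CSF2RB, the common chain of the GM-CSF receptor (2.97 ± 0.0682 and 2.69 ± 0.213 FPKM, SD, n = 3), and BTK (37.6 ± 0.783 and 36.3 ± 0.776 FPKM). Leaving aside SPI1, which ranked between both by unadjusted p, TLR2 came next (18.3 ± 3.21 and 19.9 ± 1.74 FPKM). Of 13 inflammatory genes known as targets of C/EBPβ and C/EBPδ only CXCL8 and IL1B were tested, and both were lower without a call. CXCL8 had 1.17, 0.964 and 0.829 FPKM in control and 0.716, 0.593 and 0.773 FPKM after I3. Every I3 library was thus below every control library for 1 of these 2 genes, against 4.64% of all genes tested. IL1B had 1.02 ± 0.301 and 0.849 ± 0.303 FPKM. No gene of any of the 6 lists other than SPI1 itself belongs to the family, and none passed the unadjusted p with the fold threshold, in either direction. The lists rest on few expressed genes, and genes under 0.5 FPKM could not show a difference at this depth.

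**Figure D5:**
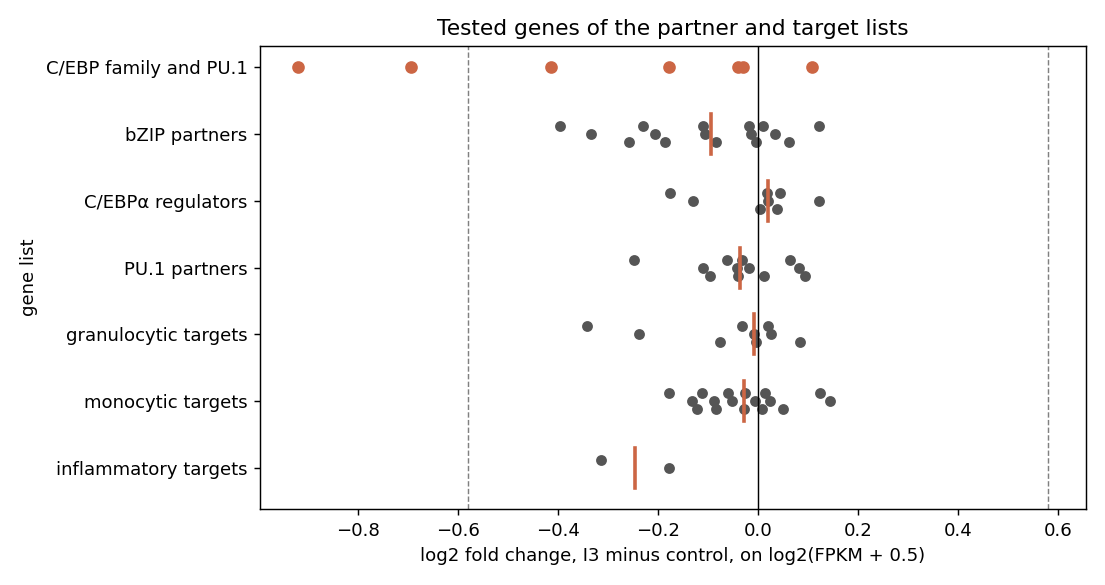
log2 fold change between I3 and control (x axis, on log2(FPKM + 0.5)) of each tested gene in the partner and target lists, with the median of a list as an orange bar and the 7 family genes as orange points. CEBPD and CEBPB alone pass the dashed fold threshold of 0.58, and the list medians lie between -0.25 and 0.020.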

How the data were processed

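Stranded libraries of polyadenylated RNA were prepared by the authors, and the processing notes name Trimmomatic, HISAT2, HTSeq, Cufflinks and hg38 without versions or roles. The authors deposited 1 FPKM value per gene and library, normalized to gene length and library total, without read counts, so their DESeq test was not repeated. Groups and numbers came from sample titles. GENCODE release 29 held 29703 of the 29810 identifiers, and 23487 had a symbol. Multiplied by exon length, FPKM gave whole reads in all 6 libraries for 95.8% of 26519 genes (tolerance 0.1 read).

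Groups were compared without covariates on log2(FPKM + 0.5) by lmFit and eBayes with trend (limma 3.58.1, R 4.3.3). The procedure was tested on simulated data whose genes vary independently. Those data lack the GC trends of these libraries, so the test does not cover them. Fold changes on this scale understate low genes. Exact permutation tests were two-sided. Tables and plots were made with pandas 2.3.3, scipy 1.17.1 and matplotlib 3.10.9 in Python 3.11.15. The GC trend is a lowess fit (span 0.3) of each library's deviations from the mean of all 6 libraries.

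The members, lists and tests were chosen with earlier results of these data known. Named genes are the 7 members, DDIT3, overlapping or neighbouring genes, the 3 genes with the smallest unadjusted p in each list (members not counted, so TLR2 took the place of SPI1) and the 3 genes most like CEBPA, CEBPB and SPI1. MPO, ELANE and CSF3R, and the TATAAA and CCAAT searches, were added after values had been seen. Alternatives were other pseudocounts, minimums and scalings, no trend, GC correction, the replicate number as a block, single libraries left out and voom on rebuilt reads. The chi-square of rebuilt reads between libraries of a group was 4.57 or more per degree of freedom, so none is a copy.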

Additional observations from a re-analysis of the deposited data

How the results depend on the processing

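With all 6 libraries, limma called 0 genes at the adjusted p under each of the 12 alternatives, voom on rebuilt reads included. Leaving out 1 library gave 0 to 1 calls of higher genes (1 without control 1) and 0 to 2 of lower genes (2 without I3 1, 1 without I3 2), none of them a member. Before adjustment, with the fold threshold, the number of genes higher moved from 98 to 62 for a pseudocount of 1, which shrinks folds of low genes, to 44 for a minimum mean of 1 FPKM, which leaves fewer genes, and to 229 on TPM. The number lower moved from 84 to 162 on TPM. The cause of the TPM counts was not tested. Leaving out 1 library gave between 91 and 146 higher and between 76 and 130 lower, the most lower ones without I3 1, where the cause was not tested either.

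CEBPB and CEBPD kept an unadjusted p under 0.05 in all 19 fits and no adjusted call in any, with log2 fold changes of -0.78 to -0.60 and -0.94 to -0.79 over all 6 libraries, and of -0.90 to -0.44 and -1.24 to -0.62 with single libraries left out. CEBPA ranged from -0.69 to -0.0071 and SPI1 from -0.27 to -0.0026 with single libraries left out, both ends near 0 being without I3 3. CEBPE, near 0, turned to 0.030 with the GC correction, with or without the replicate block added, and kept its sign with the block alone. With single libraries left out CEBPE ranged from -0.061 to 0.026 and CEBPG from -0.077 to 0.014. The sign also turned with single libraries left out for DDIT3 (-0.16 to 0.063), CEBPA-DT (-0.027 to 0.14), CEBPZOS (-0.0080 to 0.28), AZU1 (-0.066 to 0.23), IL1B (-0.32 to 0.014), MPO (-0.068 to 0.0043), ELANE (-0.16 to 0.17) and CSF3R (-0.085 to 0.11). With all 6 libraries, the sign turned for MPO (0.028) and CSF3R (0.037) with the GC correction, with or without the replicate block added. It also turned for ELANE (-0.044) and CSF3R (0.039) with quantile normalization, and for CSF3R on TPM (0.0051). MPO, ELANE and CSF3R were added after their values were seen. The log2 ratio of CEBPB to CEBPA, -0.28 lower after I3, ranged from -0.48 to 0.00024, the last without I3 2. The difference in the share of CEBPB was between -2.01 and -1.04 percentage points.

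Whether equal replicate numbers mark paired libraries could not be decided, since the deviations also carry the GC trends of the libraries. The deviations of same-numbered libraries correlated by 0.186, 0.505 and -0.108 over 7793 genes. Control 2 was closest to I3 2, whereas control 1 was closer to I3 3 (0.301) than to I3 1. With the replicate block, 109 higher and 91 lower genes passed before adjustment, and no call was changed. Depth limits mainly CEBPA and CEBPB, with 71 to 227 reads per library.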
